A study of Mus musculus with 18 samples.

Results

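Gene expression in the dura mater, the outer membrane around the brain, was compared between mast cell-deficient and wild-type male mice after an experimental stroke. The members were 6 of the 18 arrays in the series, chosen by their titles: 3 from deficient stroke mice and 3 from wild-type stroke mice. Deficient mice were WBB6F1-KitW/W-v, with 2 mutant alleles of Kit, and wild-type mice were WBB6F1-Kit+/+ from the same background. In both groups the middle cerebral artery had been closed with a filament for 30 minutes at an age of 17 to 21 weeks, and the dura was taken 2 days later from mice perfused under isoflurane. Engrafted stroke mice (3 arrays) carried the same Kit alleles as deficient mice and had received mast cells 8 to 10 weeks before. Their artery was also closed for 30 minutes at 17 to 21 weeks of age, with the dura taken 2 days later. The 3 naive groups (3 arrays each, deficient, engrafted and wild type) had no stroke and no operation. Naive mice were also 17 to 21 weeks old, and the engrafted ones had received mast cells 8 to 10 weeks before. No sham-operated group was analysed here. Each array held the RNA of 1 dura, so that p-values measured the spread between mice. Loss of mast cells and loss of Kit function in other cells cannot be told apart between deficient and wild-type mice.

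Mast cells are long-lived granulated cells of connective tissue that depend on signalling from stem cell factor through the receptor Kit. They are abundant in the dura, where they lie along blood vessels and nerves. Their granules hold proteases in large amounts (chymases, tryptases and carboxypeptidase A3) bound to heparin, together with histamine, and are released within minutes of activation. The W allele of Kit removes the receptor from the cell surface and the W-v allele weakens its kinase, so that adult KitW/W-v mice have almost no mast cells. These mice also have other known defects of Kit-dependent cells, among them anaemia, low neutrophil numbers, and loss of pigment cells and of intestinal pacemaker cells.

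To show the start-site regions of genes on which the comparison turned, 150 bases before the transcription start are given 5′ to 3′ on the gene's strand, from RefSeq with build GRCm38.p6. Cpa3 lies at chr3:20242182-20242331 on the minus strand and Mcpt4 at chr14:56062311-56062460 on the minus strand, and these were the mast cell protease genes for which a sequence was at hand. Capitals mark GATAA, the core letters bound by GATA factors, searched on both strands.
Cpa3: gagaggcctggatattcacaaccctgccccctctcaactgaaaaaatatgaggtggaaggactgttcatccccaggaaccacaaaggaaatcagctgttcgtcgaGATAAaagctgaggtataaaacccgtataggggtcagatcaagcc
Mcpt4: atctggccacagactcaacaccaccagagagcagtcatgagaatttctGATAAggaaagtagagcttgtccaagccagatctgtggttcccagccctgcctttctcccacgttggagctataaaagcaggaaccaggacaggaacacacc
The match began at position -45 from the start of Cpa3 and at position -102 from that of Mcpt4. In the whole windows of 300 bases (250 before and 50 after the start), GATAA was found in 8347 of 32851 windows (25.4%) on either strand, so that a match in a window was common. Among genes called lower in deficient stroke dura, 65 of 310 with a window held it (21.0%), against 3817 of 15613 tested genes with a window (24.4%).

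The next 4 genes are strongly lower genes of different roles whose windows held TGANTCA, the letters bound by AP-1, and this choice was made with their values known. This motif reads the same on both strands and does not overlap GATAA. Mmp3 (stromelysin 1) lies at chr9:7445672-7445821 on the plus strand, Plaur (the urokinase receptor) at chr7:24462333-24462482 on the plus strand, Prok2 (prokineticin 2) at chr6:99726393-99726542 on the minus strand, and Krtdap (keratinocyte differentiation-associated protein) at chr7:30787755-30787904 on the plus strand. Capitals mark TGANTCA.
Mmp3: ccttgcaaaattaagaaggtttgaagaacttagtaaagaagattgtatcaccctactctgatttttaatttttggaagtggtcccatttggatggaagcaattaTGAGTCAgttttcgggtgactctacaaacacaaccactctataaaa
Plaur: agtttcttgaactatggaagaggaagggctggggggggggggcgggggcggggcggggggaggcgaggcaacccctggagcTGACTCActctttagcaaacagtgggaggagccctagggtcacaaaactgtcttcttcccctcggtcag
Prok2: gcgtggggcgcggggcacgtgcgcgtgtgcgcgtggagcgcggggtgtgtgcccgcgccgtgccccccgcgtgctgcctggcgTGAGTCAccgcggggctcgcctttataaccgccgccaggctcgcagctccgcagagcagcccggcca
Krtdap: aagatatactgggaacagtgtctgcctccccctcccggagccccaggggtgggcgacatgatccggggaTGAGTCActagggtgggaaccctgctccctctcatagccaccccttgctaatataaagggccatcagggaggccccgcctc
The matches began at positions -46, -69, -67 and -81. TGANTCA was found in 2565 of 32851 windows (7.81%). It was found in 42 of 310 genes called lower with a window (13.5%), in 10 of 105 called higher (9.52%) and in 1262 of 15613 tested genes (8.08%). The motif itself was also chosen after values were seen, so these shares are no independent test.

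The 6 compared arrays were alike in scale. Array medians lay between 7.77 and 7.85 on the deposited log2 scale, lower quartiles between 6.09 and 6.18, and single values ran from 3.45 to 14.03. Within a group, pairs of arrays had correlations of 0.989 to 0.993 over the probe sets. Precision was limited by having 3 arrays a group, and the median standard error (SE) of the difference was 0.10. Ttr, a product of the choroid plexus that marks tissue carried along from the brain's ventricles, was at 9.27 in deficient array 2 and 9.03 in wild-type array 2, against 13.6 to 13.8 in the other 4 arrays, so that 1 array of each group stood apart. In bulk tissue, fewer cells of a type and less RNA per cell cannot be told apart.

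Transcripts of 5 mast cell granule proteases were lower in deficient stroke dura. Of 10 measured members of the protease list, 5 fell and 0 rose, with a median difference of -0.77, against a median of 0.02 over all probe sets tested. This list was chosen with earlier results of these data known. So was each list below that is not said to be drawn up after values were seen. Mcpt2, a chymase-family protease, had log2 levels of 5.44, 5.42 and 5.31 in deficient stroke dura, against 9.60, 9.28 and 8.80 in wild-type stroke dura. The groups lay far apart, and the deficient arrays were not shown to be above background, since their mean (5.39, against 9.23 in wild type) lay below the lower quartile of each array. Mcpt2 was at least 8.39-fold lower (limma adjusted p = 3.68e-05). Cpa3, carboxypeptidase A3, had 5.67, 5.82 and 5.74 in deficient stroke dura, against 9.17, 9.29 and 8.39 in wild-type stroke dura. It was also not shown to be above background in deficient dura and was at least 6.91-fold lower (adjusted p = 0.000181). Mcpt4, the main chymase of connective tissue mast cells, had 5.68, 5.88 and 5.94, against 8.53, 8.59 and 7.96 in wild type, and was at least 4.60-fold lower (adjusted p = 0.00154).

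The tryptase probe sets differed by less and remained above the lower quartile in deficient dura. Tpsab1 had 6.80, 7.10 and 7.14 in deficient stroke dura, against 7.93, 8.07 and 7.87 in wild-type stroke dura (1.93-fold lower, adjusted p = 0.000505). Tpsb2 had 7.41, 7.41 and 7.48 in deficient stroke dura, against 8.34, 8.46 and 8.12 in wild-type stroke dura (1.84-fold lower, adjusted p = 0.00879). The 2 tryptase genes are close paralogs, so probes may share signal between them. Cma1, a chymase, had a difference of -0.66 (adjusted p = 0.0998), and the other 4 measured members (Mcpt1, Tpsg1, Ctsg and Gzmb) had differences between -0.42 and 0.01.

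No member of the mast cell identity list, which held receptors, enzymes and transcription factors rather than granule proteases, passed the test (0 of 19 measured, median -0.08). Kit itself, the mutated gene, had log2 levels of 8.63, 8.76 and 8.71 in deficient stroke dura, against 9.17, 8.92 and 8.80 in wild-type stroke dura, with a difference of -0.27 (SE 0.15, adjusted p = 0.433). Other dural cells also transcribe Kit, and the alleles are not told apart by the probe set, so this level is no check of the genotype. The receptor chain Fcer1a (-0.52, adjusted p = 0.175) and the receptor Mrgprb1 (-0.74, adjusted p = 0.172) had arrays that did not overlap, with deficient means below the lower quartile. Such separation was common, at 8 of the 19 members and at 19.4% of all probe sets tested. Hdc, which makes histamine, had a difference of -0.37 (adjusted p = 0.204). Among the rest, Ms4a2, Fcer1g, Srgn, Slc18a2, Ltc4s, Mrgprb2 and Cd200r3 had differences between -0.19 and -0.04, and Gata2, Mitf, Tph1, Hpgds, Rab27b, Ndst2, Siglece and Slc6a4 between 0.00 and 0.37.

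**Figure D1:**
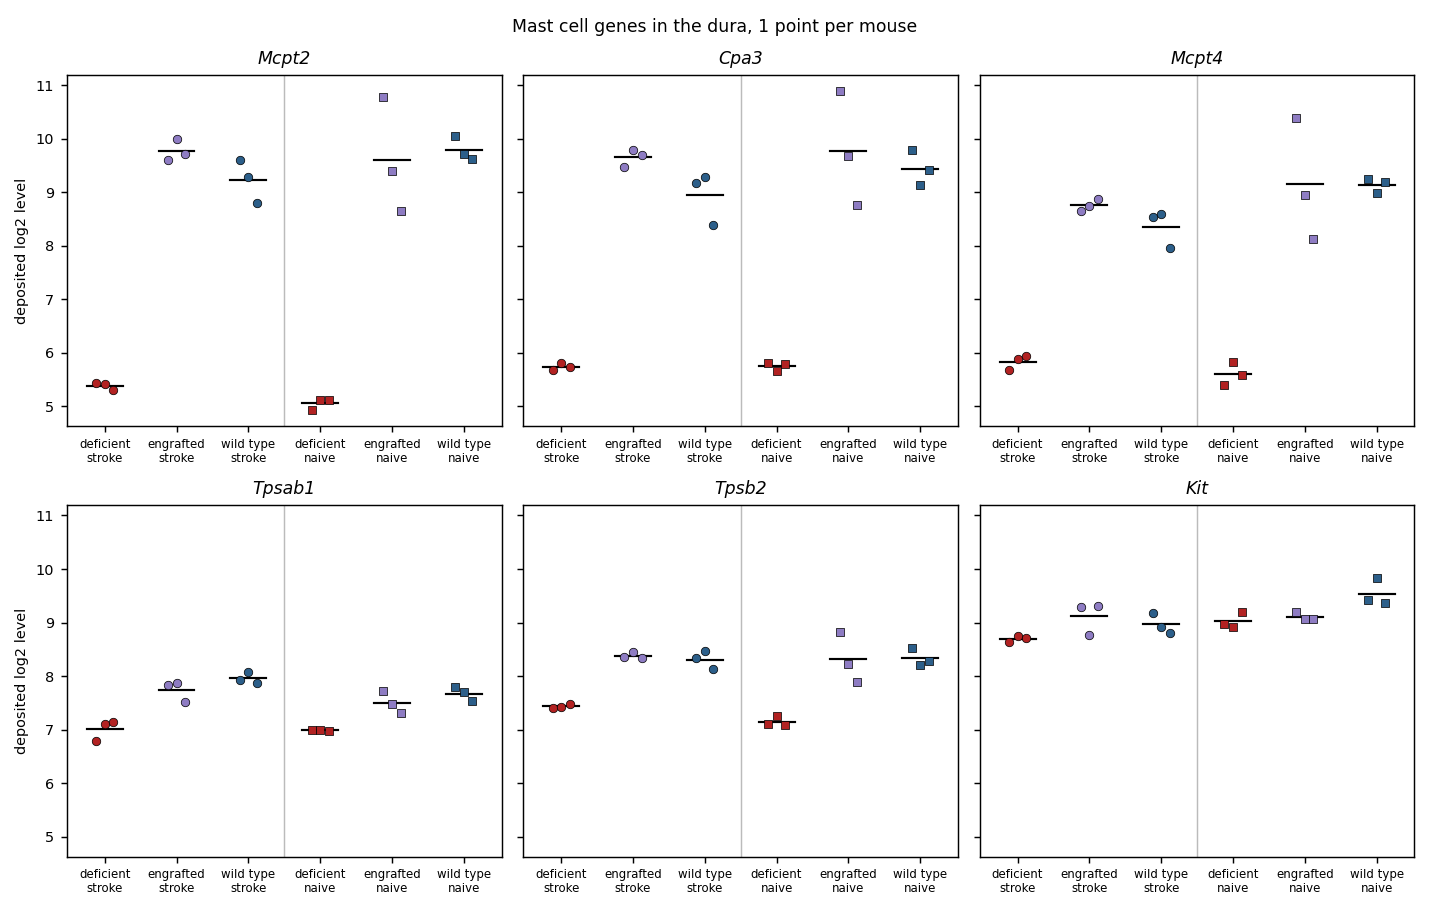
Deposited log2 levels of 5 mast cell proteases and Kit (vertical axes) in the 3 stroke groups and the 3 naive groups (horizontal axes), with 1 point per mouse and a bar at the mean of 3. Mcpt2, Cpa3 and Mcpt4 sat between 5.31 and 5.94 in deficient stroke dura and between 7.96 and 9.60 in wild-type stroke dura, while Kit differed by 0.27.

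Across all genes, 565 of 21640 probe sets differed between deficient and wild-type stroke dura (2.61%), which stood for 552 genes. Of these probe sets, 139 were higher (0.642% of those tested) and 426 lower (1.97%). Over all 21640 tested, called or not, 12121 differences were positive and 9519 negative, the background for the sign counts of lists below. The median called difference was 0.52 among higher and -0.59 among lower probe sets, and 74 were at least 2-fold (11 higher and 63 lower). The 3 deficient arrays did not overlap the 3 wild-type arrays at any of the 565, and this was so for 4206 probe sets in all (19.4% of those tested). An unadjusted p under 0.05 was found for 3122 probe sets, where 1082 would be expected if nothing differed. The count was 226 without deficient array 3, 246 without deficient array 2, 298 without wild-type array 3 and 321 without wild-type array 1. It was 392 without wild-type array 2 and 593 without deficient array 1. In a fit without the 5 arrays lowest in Ttr, which left 2 arrays against 2, 93 of the 565 remained called, and 283 remained when scores of choroid plexus and neuron genes entered the fit as covariates.

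**Figure D2:**
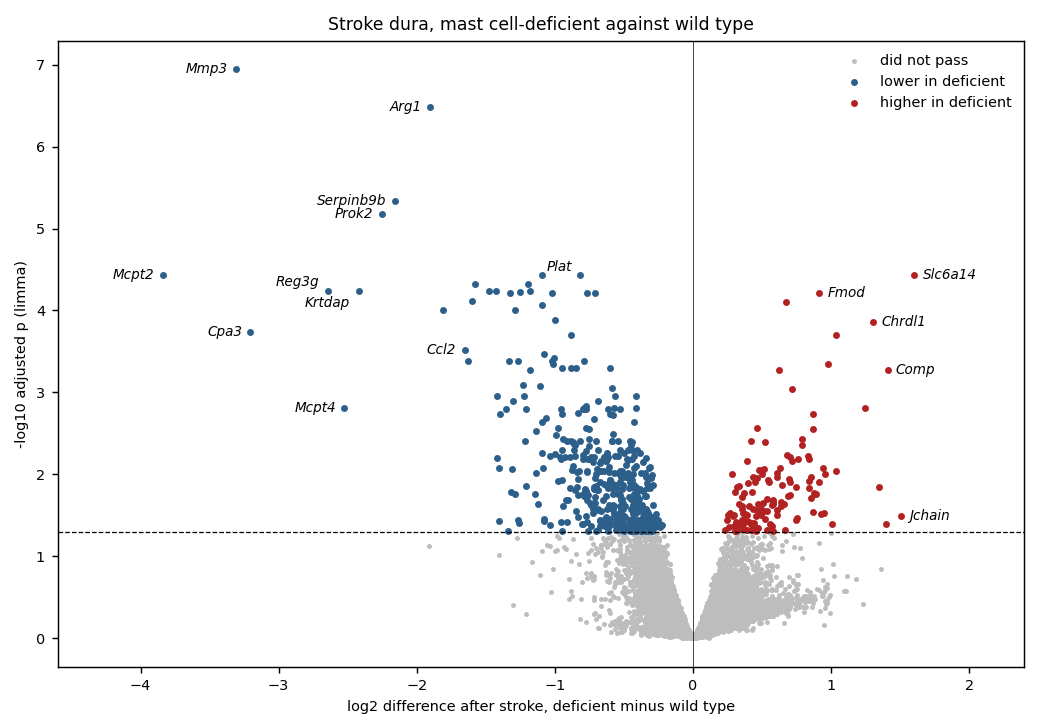
Log2 difference after stroke, deficient minus wild type (horizontal axis), against -log10 of the limma adjusted p (vertical axis) for the 21640 probe sets tested, with the threshold of 0.05 dashed. The 426 lower probe sets reached measured differences of -3.84 (Mcpt2) and the 139 higher ones 1.60 (Slc6a14).

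Some enzymes that degrade matrix were lower, and 10 of the 16 genes measured in their list did not pass. Mmp3, stromelysin 1, a metalloproteinase that cuts proteoglycans and activates other metalloproteinases, had log2 levels of 8.21, 7.56 and 7.34 in deficient stroke dura, against 10.83, 11.09 and 11.12 in wild-type stroke dura. It was 9.91-fold lower (difference -3.31, SE 0.18, adjusted p = 1.13e-07), the smallest p of the comparison. In naive dura its mean was 6.82 in deficient and 6.80 in wild-type mice. Of 16 measured metalloproteinases and inhibitors, 6 fell (Mmp3, Mmp19, Timp1 and 3 aggrecan-cleaving enzymes) and 0 rose (median -0.44). The aggrecan-cleaving enzymes Adamts1, Adamts4 and Adamts5 fell 1.85-fold, 2.31-fold and 2.12-fold (adjusted p = 0.000201, 0.0016 and 0.000339). Timp1, an inhibitor of metalloproteinases, had 12.45, 12.20 and 12.03 in deficient dura, against 12.81, 12.98 and 13.11 in wild type (1.67-fold lower, adjusted p = 0.00621). Only 3 of the list were called without the 5 arrays lowest in Ttr.

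Some genes of plasminogen activation, the system that makes plasmin to dissolve clots and matrix, were also lower. This list was drawn up after values were seen. Of 11 measured members 5 fell and 0 rose (median -0.60), and the 5 were called in each fit that left out 1 compared array. Plat, tissue plasminogen activator, had 10.59, 10.65 and 10.75 in deficient stroke dura, against 11.38, 11.49 and 11.56 in wild-type stroke dura (1.76-fold lower, adjusted p = 3.68e-05). Plau, urokinase, was 1.94-fold lower (adjusted p = 0.0016). Its receptor Plaur had 7.93, 7.85 and 7.99 in deficient dura, against 9.04, 9.19 and 9.29 in wild type (2.39-fold lower, adjusted p = 6.01e-05). Procr, the endothelial protein C receptor, was 1.71-fold lower (adjusted p = 0.00148), and Tfpi2, a plasmin inhibitor held in the matrix, 2.44-fold lower (adjusted p = 9.94e-05). The list therefore held lower activators and a lower inhibitor.

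CC chemokines, which draw mainly monocytes and other mononuclear leukocytes, were called in both directions. Of 18 measured CC chemokines, 5 fell and 2 rose (median -0.01). Ccl2, the ligand of Ccr2, had 8.03, 8.04 and 7.96 in deficient stroke dura, against 10.29, 9.33 and 9.37 in wild-type stroke dura (3.15-fold lower, adjusted p = 0.000302). The deficient arrays lay close together and near the naive means (7.93 in deficient and 7.80 in wild type), below every wild-type stroke array. Ccl7, a second Ccr2 ligand, had 8.21, 8.10 and 7.81, against 9.93, 9.35 and 9.03 in wild type (2.64-fold lower, adjusted p = 0.00182). Ccl3 was 1.82-fold lower (adjusted p = 0.00425). The calls of Ccl6, Ccl9, Ccl8 and Ccl24 were kept in 0, 1, 3 and 4 of the 6 fits without 1 compared array. In the list, 3 were lower without any 1 of the wild-type arrays or of deficient arrays 2 and 3, and 0 were higher without wild-type array 3. Among 15 CXC chemokines, which act mainly on neutrophils and lymphocytes, 0 passed (median 0.02). Cxcl2 had 5.53, 5.62 and 5.62 in deficient dura, against 6.76, 5.78 and 5.90 in wild type, with a difference of -0.56 (adjusted p = 0.169) and a deficient mean below the lower quartile. Cxcl9 had the opposite sign, with a difference of 1.00 (adjusted p = 0.0518). Among fits without 1 compared array, Cxcl9 passed only without deficient array 1 (adjusted p = 0.0256). Of the 15 differences, 8 were positive and 7 negative.

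Cytokines of the interleukin 6 family signal through receptors that contain gp130. Il6 itself had log2 levels of 4.86, 4.54 and 4.46 in deficient stroke dura, against 6.30, 5.14 and 8.15 in wild-type stroke dura. The wild-type arrays spread over 3 log2 units, and the deficient mean lay below the lower quartile. For Il6 the difference of -1.91 did not pass (adjusted p = 0.0761). Without 1 compared array it ran from -2.61 (adjusted p = 0.00919, without wild-type array 2) to -1.10 (adjusted p = 0.25), and it passed in 1 of the 6 fits. In a list of the family drawn up after values were seen, 5 of 12 measured genes fell and 1 rose (median -0.34). Il11 had 6.61, 6.64 and 6.86 in deficient dura, against 8.75, 7.63 and 7.81 in wild type (2.56-fold lower, adjusted p = 0.0016). In the limma fit of only the 6 compared arrays, the call of Il11 was lost (adjusted p = 0.0817) and 3 of the list fell. Osmr, the oncostatin M receptor, had 10.60, 10.64 and 10.59, against 11.29, 11.28 and 11.32 (1.61-fold lower, adjusted p = 0.00506). Socs3, a feedback inhibitor induced by this family, was 1.84-fold lower (adjusted p = 0.000508), and the cytokine Clcf1 1.48-fold lower (adjusted p = 0.00595). Cntfr, the receptor chain for ciliary neurotrophic factor, was the member that rose, 1.65-fold (adjusted p = 0.000908). The call of Lif was lost without wild-type array 1, wild-type array 3 or deficient array 2 (adjusted p = 0.0505, 0.0605 and 0.06).

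Some marker genes of monocytes, macrophages and neutrophils were lower. Of 16 measured genes of infiltrating monocytes and macrophages, 6 fell and 0 rose (median -0.32). Arg1, arginase 1, which macrophages switch on after tissue injury, had 6.20, 6.28 and 6.40 in deficient stroke dura, against 8.33, 7.98 and 8.26 in wild-type stroke dura (3.73-fold lower, adjusted p = 3.25e-07). Its naive means were 6.19 in deficient and 5.94 in wild type, the latter below the lower quartile of each array and so not shown to be above background. Cd44, the hyaluronan receptor, was 2.03-fold lower (adjusted p = 0.000416), and Cd14, the endotoxin co-receptor, 1.68-fold lower (adjusted p = 0.00281). Vcan, the proteoglycan versican, made by monocytes and by fibroblasts, was 1.81-fold lower (adjusted p = 0.00595). Without the 5 arrays lowest in Ttr, 3 of the list were called.

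Among 14 measured genes of mature neutrophils, 5 fell and 0 rose (median -0.69), and all 14 had a negative difference. The list was chosen with earlier results of these data known and holds Prok2, so these counts are no independent test. Prok2, a chemoattractant peptide made by neutrophils and by neurons, had 6.89, 6.80 and 7.05 in deficient dura, against 8.60, 9.28 and 9.62 in wild type (4.77-fold lower, adjusted p = 6.58e-06). The lectin receptor Clec4d was 1.88-fold lower (adjusted p = 0.00393). Clec4e, a receptor for molecules of dead cells and mycobacteria, was at least 1.92-fold lower (adjusted p = 0.00548), and Trem1, which amplifies neutrophil and monocyte responses, at least 1.29-fold lower (adjusted p = 0.00697), both with deficient means below the lower quartile. The 5 calls were made in each fit without 1 compared array, and 1 was made without the 5 arrays lowest in Ttr. The same list had a median of -0.43 in naive dura with 0 of 14 called. Of 12 granulocyte precursor genes, 0 passed (median -0.23).

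Genes best known from skin and other lining epithelia were among the largest falls. Reg3g, a secreted antibacterial lectin, had log2 levels of 5.76, 5.86 and 5.51 in deficient stroke dura, against 8.37, 7.55 and 9.14 in wild-type stroke dura (at least 4.58-fold lower, adjusted p = 5.85e-05). Krtdap had 6.79, 5.89 and 6.20 in deficient dura, against 8.28, 8.86 and 9.0 in wild type (5.36-fold lower, adjusted p = 5.85e-05). Tgm1, the transglutaminase that cross-links the cornified envelope of skin, had 7.96, 7.91 and 8.09, against 10.02, 10.01 and 9.35 in wild type (3.50-fold lower, adjusted p = 9.9e-05). Dmkn, dermokine, was 2.98-fold lower (adjusted p = 4.76e-05). Krtdap and Tgm1 were the 2 of 8 measured keratinocyte genes that passed (median -0.01), and the keratins Krt5, Krt14, Krt1 and Krt10 had differences between -0.09 and 0.16 and did not pass. Msln, mesothelin, a surface protein of mesothelial linings, had 9.55, 8.73 and 9.50 in deficient dura, against 10.81, 10.62 and 11.22 in wild type (3.09-fold lower, adjusted p = 0.000416). Raet1d, a ligand of the killer cell receptor NKG2D, was 3.04-fold lower (adjusted p = 7.72e-05).

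A pair of serine protease inhibitors of the clade that acts inside cells was also among the 15 largest falls. Serpinb9b, a granzyme inhibitor family member, had 6.96, 6.77 and 6.72 in deficient stroke dura, against 8.83, 8.68 and 9.41 in wild-type stroke dura (4.47-fold lower, adjusted p = 4.6e-06). Serpinb1a, an inhibitor of neutrophil serine proteases, had 9.25, 9.08 and 8.88, against 10.41, 10.51 and 10.72 in wild type (2.78-fold lower, adjusted p = 5.76e-05). In both, every deficient array lay more than 1 log2 unit below every wild-type array.

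The number of proliferation genes called depended on single arrays. Of 20 measured cell cycle genes, 11 fell and 0 rose (median -0.73), and all 20 had a negative difference. Cdk1, the mitotic kinase, had 9.04, 8.79 and 8.07 in deficient stroke dura, against 10.03, 10.15 and 9.59 in wild-type stroke dura (2.45-fold lower, adjusted p = 0.0177). Aurkb and Plk1, kinases of chromosome segregation, had differences of -0.95 and -1.12 (adjusted p = 0.0117 and 0.0233), and the kinetochore gene Cenpf -0.69 (adjusted p = 0.0155). The count of 11 was 0 without wild-type array 1 or without deficient array 3, 1 without wild-type array 2, 2 without deficient array 2, 7 without wild-type array 3 and 13 without deficient array 1. It was 0 without the 5 arrays lowest in Ttr. The median of the list in naive dura was -0.08.

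Enzymes and carriers of retinoic acid signalling, which meningeal fibroblasts are known to maintain, were lower in part. In a list drawn up after values were seen, 5 of 16 measured genes fell and 0 rose (median -0.01). Rdh10, which makes retinaldehyde, had 9.56, 9.40 and 9.46 in deficient dura, against 10.73, 10.39 and 10.59 in wild type (2.14-fold lower, adjusted p = 3.68e-05). Aldh1a2, which turns retinaldehyde into retinoic acid, had 10.51, 10.42 and 10.39, against 11.65, 11.39 and 11.21 in wild type (1.97-fold lower, adjusted p = 0.00275). The binding protein Crabp2 was 1.71-fold lower (adjusted p = 0.00516), and Stra6, the receptor that takes up retinol, 1.86-fold lower (adjusted p = 0.0061). Aldh1a2 and Crabp2 were also the 2 of 12 dural fibroblast markers that passed (median -0.13). Rarb, a receptor induced by retinoic acid, was called with a difference of -0.44 (adjusted p = 0.0303), and its call was lost without wild-type array 1 (0.128), wild-type array 3 (0.0995), deficient array 2 (0.163) or deficient array 3 (0.152).

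Growth factor and stress genes included further falls. Hbegf, a ligand of the EGF receptor shed from the cell surface, had 8.54, 8.42 and 8.46 in deficient stroke dura, against 9.86, 9.59 and 9.57 in wild-type stroke dura (2.29-fold lower, adjusted p = 4.76e-05), and the other 5 measured ligands did not pass. This list of ligands was drawn up after values were seen. Hmox1, which degrades heme, had 9.72, 9.25 and 9.27, against 11.15, 10.57 and 10.52 in wild type (2.52-fold lower, adjusted p = 0.000416), in a hypoxia and iron list with 2 of 14 lower and a median of -0.13. Of 18 immediate early genes, which encode transcription factors and regulators induced within minutes of a stimulus, 4 fell and 0 rose (median -0.29). Fosl1 and Jun, subunits of AP-1, had differences of -0.57 and -0.74 (adjusted p = 0.00112 and 0.00636), and Ier3 -0.62 (adjusted p = 0.00646). The call of Fosl2 was lost in each of the 6 fits without 1 compared array (adjusted p = 0.0545 without deficient array 2 and 0.243 without deficient array 3). Prg4, lubricin, a lubricating proteoglycan of joint surfaces, had 12.07, 11.67 and 11.87 in deficient dura, against 12.95, 13.06 and 13.15 in wild type (2.27-fold lower, adjusted p = 5.76e-05).

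Genes higher in deficient stroke dura were fewer and the differences smaller. Slc6a14, a transporter of neutral and basic amino acids, had log2 levels of 8.17, 8.89 and 8.42 in deficient stroke dura, against 6.91, 6.97 and 6.79 in wild-type stroke dura (3.04-fold higher, adjusted p = 3.68e-05). Its naive means were 8.89 in deficient and 8.74 in wild-type dura, so that wild-type stroke arrays were the low group. In the list of cartilage and tendon matrix, 4 of 10 measured members rose and 1 (Prg4) fell, with a median of 0.32. Comp, cartilage oligomeric matrix protein, had 9.77, 10.02 and 9.40 in deficient dura, against 8.51, 8.36 and 8.09 in wild type (2.66-fold higher, adjusted p = 0.000538). Fmod, fibromodulin, which binds collagen fibrils, had 12.25, 12.45 and 12.35, against 11.49, 11.56 and 11.25 in wild type (1.88-fold higher, adjusted p = 6.13e-05). Chad, chondroadherin, was 2.55-fold higher (adjusted p = 0.0145), with its call lost without deficient array 2 (0.0859) or wild-type array 3 (0.0771), and Tnmd, tenomodulin, 1.85-fold higher (adjusted p = 0.0172), with its call lost without deficient array 2 (0.0859), deficient array 3 (0.0674) or wild-type array 3 (0.0882). The number of the list that rose was 2 without wild-type array 3 or deficient array 2, and also 2 when the 5 arrays lowest in Ttr were left out.

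Secreted regulators were also among the 15 largest rises. Chrdl1, an antagonist of bone morphogenetic proteins, had 10.66, 10.89 and 10.81 in deficient stroke dura, against 9.78, 9.58 and 9.09 in wild-type stroke dura (2.47-fold higher, adjusted p = 0.000139). Egfl6, a matrix protein with EGF repeats, had 7.65, 7.66 and 7.72, against 6.62, 6.67 and 6.63 in wild type (2.05-fold higher, adjusted p = 0.000201), with arrays of each group within 0.1 of each other. Pla2g2d, a secreted phospholipase of dendritic cells and macrophages, was 2.37-fold higher (adjusted p = 0.00153), and Cpxm2, a member of the carboxypeptidase family, 1.97-fold higher (adjusted p = 0.000445). Cpz, a carboxypeptidase that acts on Wnt signalling, was 2.05-fold higher (adjusted p = 0.00921), and Prokr1, a receptor for prokineticins, 1.94-fold higher (adjusted p = 0.00995). Both lost their call without deficient array 2 (0.0548 and 0.0545). Prok2, a ligand of Prokr1, was lower, as given above.

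A further 5 of the 15 largest rises had calls that ended when single arrays were left out. Jchain, the joining chain of polymeric antibodies made by plasma cells, had 9.79, 10.32 and 10.12 in deficient stroke dura, against 8.71, 8.33 and 8.68 in wild-type stroke dura (2.83-fold higher, adjusted p = 0.0328). Its call was kept only without deficient array 1 (adjusted p of 0.0764 to 0.142 without any other compared array). Zbtb16, a transcription factor strongly induced by glucocorticoids, was 2.64-fold higher (adjusted p = 0.0403), and its adjusted p lay between 0.053 and 0.165 in the 6 fits without 1 compared array. Nell2, a secreted neural protein, was 2.00-fold higher (adjusted p = 0.0404) and was called only without deficient array 1 (0.0696 to 0.193 without any other). Galr1, a galanin receptor, was 1.93-fold higher (adjusted p = 0.0296), and its call was lost without wild-type array 2 (0.0856), wild-type array 3 (0.133), deficient array 1 (0.0756) or deficient array 2 (0.14). Ostn, the secreted peptide osteocrin, was 1.90-fold higher (adjusted p = 0.0302) and was called only without wild-type array 2 (0.0744 to 0.121 without any other).

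**Figure D3:**
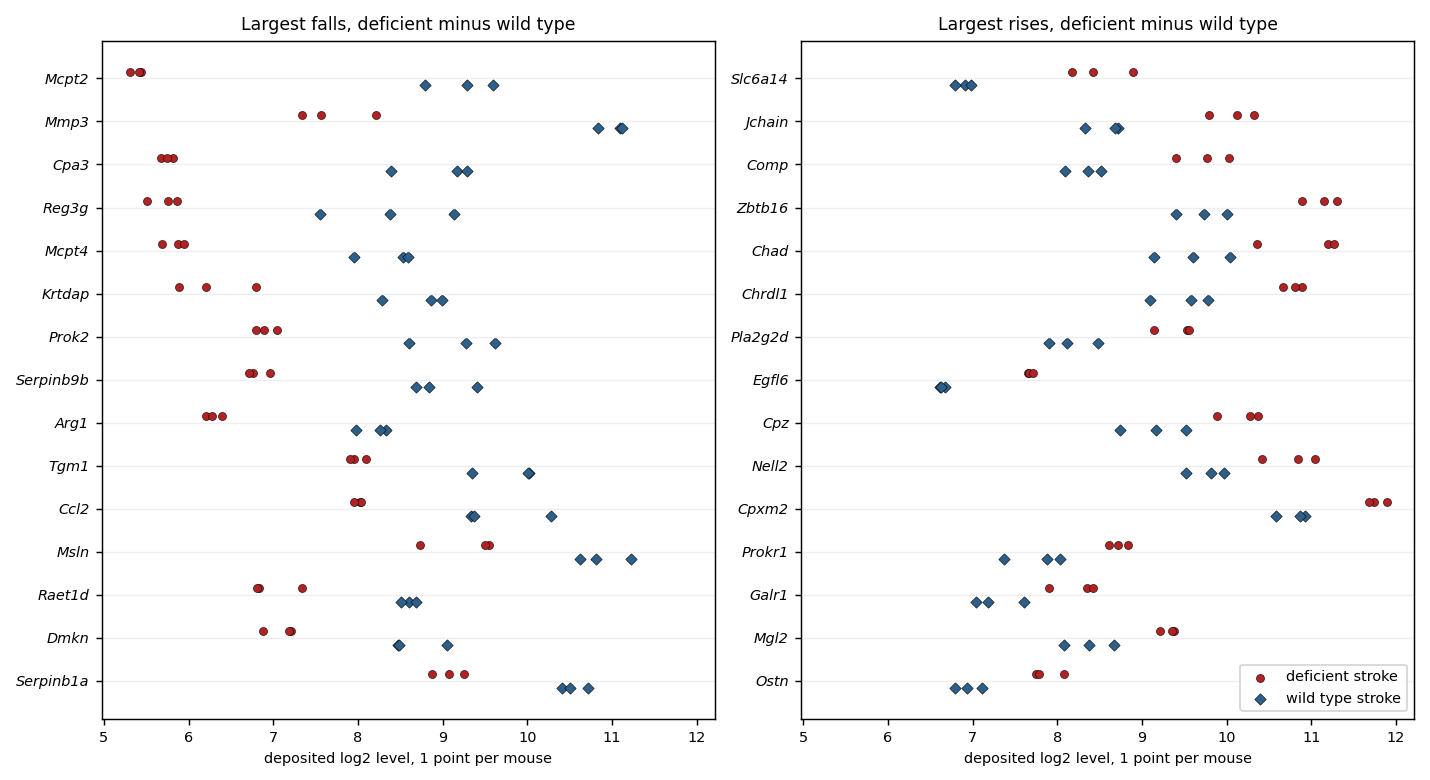
Deposited log2 levels (horizontal axes) of the 15 genes with the largest falls and the 15 with the largest rises among those called (rows), with 1 point per mouse, deficient stroke above wild-type stroke in each row. The 3 deficient arrays did not overlap the 3 wild-type arrays for any of the 30 genes, from Mcpt2 (5.31 to 5.44, against 8.80 to 9.60) to Ostn (7.75 to 8.07, against 6.79 to 7.11).

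Genes of macrophages that live in the dura and of antigen presentation were called in small numbers. Of 16 measured resident macrophage genes, 2 rose and 1 fell (median 0.26), and 15 had a positive difference. The member that fell was Lyve1, a hyaluronan receptor that marks macrophages along dural vessels and lymphatic endothelium, with 9.96, 9.77 and 9.77 in deficient dura, against 10.35, 10.62 and 10.45 in wild type (1.56-fold lower, adjusted p = 0.0361). Its call was kept only without deficient array 1 (adjusted p of 0.0624 to 0.149 without any other compared array). Ccl8, a chemokine of these macrophages, had 9.86, 10.39 and 9.88 in deficient dura, against 9.14, 9.16 and 9.15 in wild type (1.85-fold higher, adjusted p = 0.0172), with its call lost without wild-type array 1 (0.0593), wild-type array 3 (0.0596) or deficient array 2 (0.0969). Maf was the other member that rose (difference 0.34, adjusted p = 0.0468), and it was called in 1 of the 6 fits without 1 compared array. The number of the list that rose was 0 without wild-type array 1, wild-type array 3 or deficient array 2. In a list of macrophage C-type lectins drawn up after values were seen, 4 of 14 rose and 2 fell (median 0.31), the falls being Clec4d and Clec4e. The number of these lectins that rose was 2 without wild-type array 3, deficient array 2 or deficient array 3. Mgl2, a lectin of dermal and meningeal macrophages and dendritic cells, had 9.22, 9.37 and 9.35 in deficient dura, against 8.66, 8.38 and 8.07 in wild type (1.92-fold higher, adjusted p = 0.00849), and Cd209d, a lectin that binds mannose, was 1.82-fold higher (adjusted p = 0.00281). The MHC class II genes H2-Aa, H2-Ab1 and H2-Eb1 had differences of 0.65, 0.58 and 0.58 (adjusted p = 0.0133, 0.0218 and 0.0233), the 3 of 14 measured genes of their list that rose. None of the 3 was called without wild-type array 3, deficient array 2 or deficient array 3 (adjusted p of 0.0551 to 0.116).

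Markers of other tissues were read for RNA carried along with the dura. All 10 measured neuron genes had a positive difference (median 0.53) and 0 passed. Their mean level, each gene centred on the 18 arrays, lay between -0.49 and 0.21 in deficient and between -0.86 and -0.48 in wild-type stroke dura. In the fit with these scores and those of choroid plexus as covariates, 105 probe sets were higher and 228 lower. All 6 measured genes of oligodendrocytes and Schwann cells also had a positive difference (median 0.23), and 1 rose: Mbp, myelin basic protein, had 9.67, 9.80 and 10.08 in deficient dura, against 9.07, 9.36 and 8.88 in wild type (1.67-fold higher, adjusted p = 0.0361). Its call was kept only without wild-type array 2 or deficient array 1 (adjusted p of 0.0976 to 0.191 without any other compared array), and it was lost with the tissue scores as covariates (difference 0.43, adjusted p = 0.214). Of 9 astrocyte genes 1 rose and 1 fell: S100b was 1.44-fold higher (adjusted p = 0.00402), and Gfap, the intermediate filament of reactive astrocytes, had 9.44, 9.42 and 9.58 in deficient dura, against 10.52, 10.59 and 10.15 in wild type (adjusted p = 0.0243). The call of Gfap was kept only without wild-type array 3 (0.0564 to 0.0969 without any other compared array). No member passed in the lists of choroid plexus (8 measured), pineal gland (8), T and NK cells (16), B cells (11), basophils (8), eosinophils (7), melanocytes (13), erythroid cells (7), platelets (6), blood vessel endothelium (10), pericytes and smooth muscle (10), skeletal muscle (10), adipocytes (9), or bone (11). Interferon-stimulated genes (14) also had 0 called, with differences between -0.20 and 0.20.

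**Figure D4:**
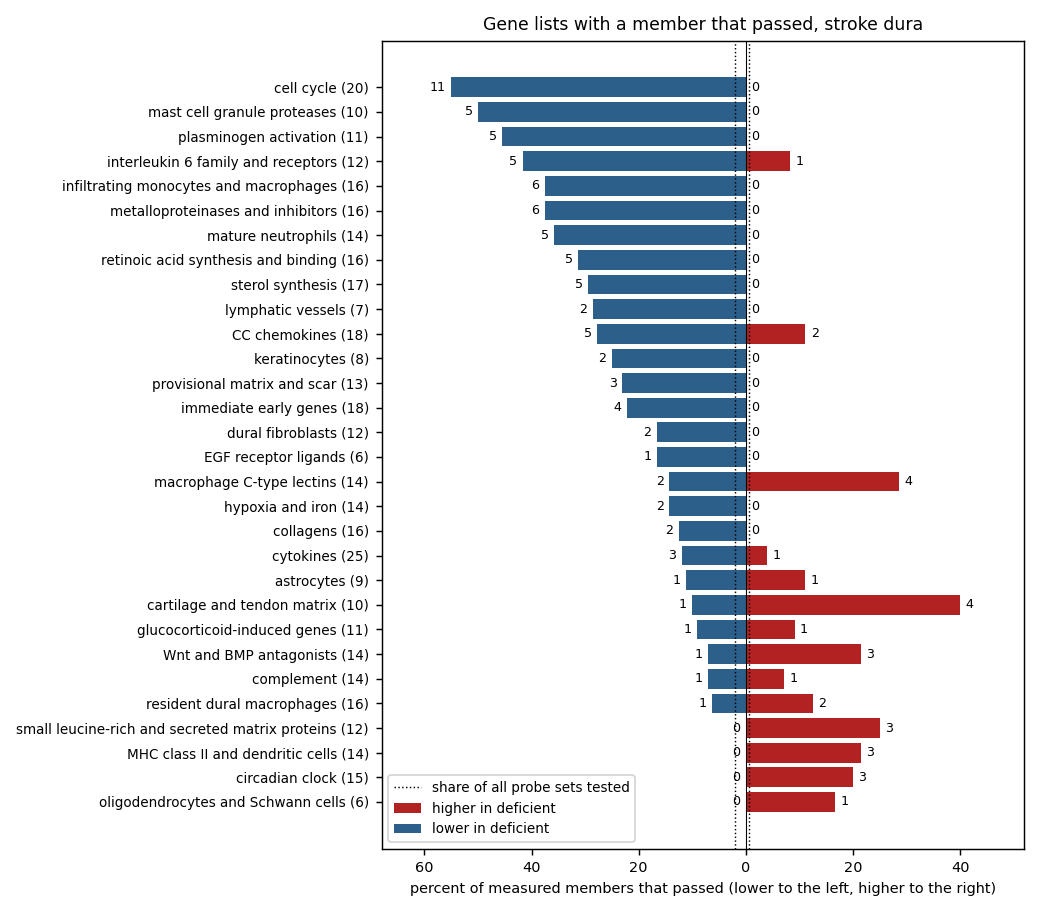
Percent of measured members that passed, higher to the right and lower to the left of 0 (horizontal axis), for each gene list with a member that passed (rows, number measured in brackets), with the number that passed at each bar. Dotted lines mark the shares of all probe sets tested, 0.642% higher and 1.97% lower, and 11 of 20 cell cycle genes and 5 of 10 mast cell proteases were lower. The rows include the 8 lists drawn up after values were seen, and the others were chosen with earlier results known. Bars beyond the dotted lines are therefore no independent test.

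Naive mice, whose arrays the stroke comparison does not share, gave the same genotype contrast without stroke. The naive groups were not alike in Ttr, which was at 10.01 and 9.25 in deficient naive arrays 1 and 3. It was at 13.73 in deficient naive array 2 and between 13.38 and 13.72 in wild-type naive dura. The choroid plexus list had a median of -1.50 in the naive contrast, with 0 of 8 called. In naive dura, deficient against wild type, 4 probe sets passed (0.0185%), all lower and all mast cell proteases. Mcpt2 was at least 12.4-fold lower, Cpa3 at least 9.72-fold and Mcpt4 at least 7.89-fold (adjusted p = 1.59e-05, 0.000419 and 0.000461), since their naive deficient means lay below the lower quartile. Tpsb2 was 2.29-fold lower (adjusted p = 0.0121). These were also the only genes called lower in both settings. Of the 426 probe sets lower after stroke, 244 (57.3%) had a negative difference in naive dura, against 54.4% of all tested. Of the 139 higher after stroke, 116 (83.5%) had a positive difference in naive dura, against 45.6% of all tested, and 0 passed there. Jchain and Comp, for example, had naive differences of 1.02 and 0.59 (adjusted p = 0.653 and 0.604).

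The difference between the stroke contrast and the naive contrast was itself called at 76 probe sets (0.351%), 2 of them positive and 74 negative. Of the 426 probe sets lower after stroke 73 passed this test, and of the 139 higher ones 1, Slc6a14 (1.45, adjusted p = 0.00519). Both sets were picked by the stroke contrast, which is part of this difference, so passing among them is partly built in. For the mast cell proteases the difference between contrasts did not pass (Mcpt2 adjusted p = 0.802). For Mcpt2, Cpa3 and Mcpt4 the deficient levels in both settings were not shown to be above background. Mmp3 (-3.32, adjusted p = 8.19e-06) and Arg1 (-2.16, adjusted p = 8.19e-06) had the smallest p among the genes described here. Prok2, Serpinb9b, Krtdap and Reg3g, whose naive differences lay between -0.05 and 0.01, also passed. Arg1 in wild-type naive dura and Reg3g in deficient stroke dura were not shown to be above background. Their differences between contrasts are given as measured. The count of 76 was 31 without deficient array 3, 38 without deficient array 2 and 44 without wild-type array 2. It was 54 with the choroid plexus and neuron scores in the fit. The unlike Ttr levels of the naive arrays, given above, also enter this difference, and their part in it was not tested. A fit without the 5 arrays lowest in Ttr left only deficient naive array 2 in its group, so no count is given for it.

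**Figure D5:**
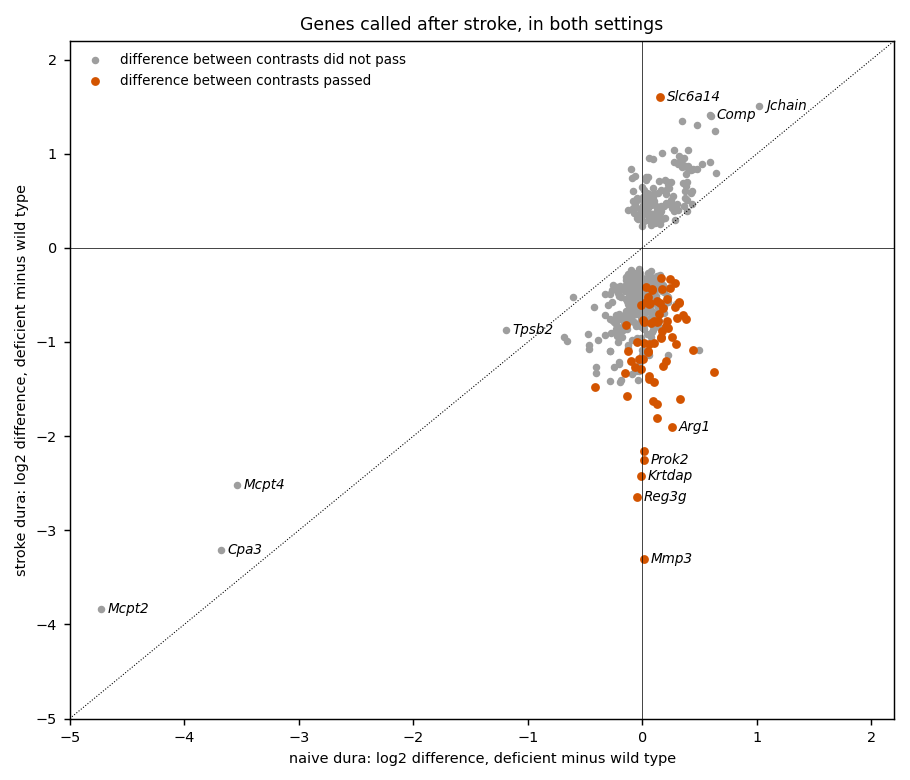
Log2 difference of deficient minus wild type in naive dura (horizontal axis) and in stroke dura (vertical axis) for the 531 genes called after stroke by their brightest probe set, with the line of equal differences dotted and genes in orange where the difference between the contrasts passed. Mcpt2, Cpa3, Mcpt4 and Tpsb2 were low on both axes, while Mmp3, Reg3g, Krtdap, Prok2 and Arg1 had naive differences between -0.05 and 0.25.

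Engrafted stroke mice, which carry the Kit alleles of deficient mice but were given mast cells, were set against each of the other stroke groups. Each of these contrasts shares the arrays of 1 group with the comparison above, so their values are given beside it without a test of likeness. Engrafted minus deficient stroke dura had 6 probe sets called (0.0277%), 5 higher and 1 lower. Among them, Mcpt2 was at least 12.3-fold higher (adjusted p = 4.62e-05), Cpa3 at least 11.3-fold (adjusted p = 0.000124), Mcpt4 at least 6.07-fold (adjusted p = 0.00408) and Fcer1a at least 1.66-fold (adjusted p = 0.0152), all against deficient means below the lower quartile. The fifth was Mmp3, with a mean of 9.65 in engrafted stroke dura, against 7.70 in deficient stroke dura (1.94 higher, adjusted p = 0.00012). Slc6a14 was the 1 lower, with a mean of 7.42 in engrafted stroke dura, against 8.50 in deficient stroke dura (-1.08, adjusted p = 0.0105).

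Engrafted minus wild-type stroke dura had 89 probe sets called (0.411%), 21 higher and 68 lower. No mast cell protease was among them (Mcpt2 0.55, adjusted p = 0.619). Mmp3 was lower in engrafted than in wild-type stroke dura (difference -1.37, adjusted p = 0.00214). Arg1 had a mean of 6.58 in engrafted stroke dura (6.29 in deficient), against 8.19 in wild type (engrafted minus wild type -1.62, adjusted p = 6.77e-06). Reg3g, Prok2, Serpinb9b, Krtdap and Tgm1 were also lower in engrafted than in wild-type stroke dura, with differences of -2.36, -1.81, -1.81, -1.74 and -1.50 (adjusted p of 8.41e-05 to 0.00297). Ccl2 had a mean of 8.36 in engrafted stroke dura (8.01 in deficient), against 9.66 in wild type (-1.30, adjusted p = 0.0066). Comp, Chrdl1, Cpxm2 and Fmod were higher than in wild type, by 1.04, 0.90, 0.71 and 0.74 (adjusted p = 0.0194, 0.0115, 0.018 and 0.00213). The count of 89 was 29 without wild-type array 3 and 57 without wild-type array 2. It was 14 with the choroid plexus and neuron scores in the fit and 28 when the arrays lowest in Ttr were left out.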

How the data were processed

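RNA of 18 single mouse durae was measured on Affymetrix whole-transcript arrays. The deposited values are log2 levels per probe set, with RMA, affy and R 3.0.0 named in the submitters' processing notes; scan dates and detection calls are not given in the sources used here. Of 34760 probe sets, 21640 with exactly 1 gene symbol were tested, and 1321 with several and 11799 with none were left out. A gene with several probe sets is represented by the brightest.

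A model with a mean for each group was fitted to the 18 arrays in limma 3.58.1 (R 4.3.3, empirical Bayes), with Benjamini-Hochberg adjustment over the 21640 probe sets in each of 5 contrasts and a threshold of 0.05. The code was tested on simulated data. A group mean below the lower quartile of each of its arrays was called not shown to be above background, and a fold against it is given as "at least", with each dim array set to the higher of its lower quartile and its own value.

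Genes named were Kit and the 2 mast cell lists, the 15 largest rises and falls among those called, up to 4 members of a list with the smallest p, and Il6, Ccl2, Ccl7 and Cxcl2; others were chosen after their values were seen. The comparison and its 45 gene lists were chosen with earlier results of these data known, and 8 further lists and the AP-1 motif after values were seen. Alternatives left out each compared array, used only the 6 compared arrays or a replicate block, changed the normalization, variance, weights or filters, added tissue scores, or dropped the 5 arrays with least Ttr. No batch could be tested. Deviations of same-numbered deficient and wild-type stroke arrays correlated at 0.05, 0.50 and 0.26, not all over 0.1, so the numbers were not taken as pairs.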

Additional observations from a re-analysis of the deposited data

Results flagged for a closer look

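For 33 of the genes named, the genotype difference after stroke differed from that in naive dura by the interaction test in limma (adjusted p between 8.19e-06 and 0.0485). Slc6a14 alone among them had a positive difference between contrasts. Genes were named largely by the stroke contrast, which is part of this difference, so passing among them is partly built in. Among secreted proteases, inhibitors and their receptors the differences between contrasts were -3.32 (Mmp3), -1.52 (Adamts5), -1.41 (Adamts4), -1.04 (Timp1), -1.44 (Plaur), -1.12 (Plau), -0.68 (Plat), -1.27 (Tfpi2), -0.99 (Procr), -2.17 (Serpinb9b) and -1.07 (Serpinb1a). Among cytokines, chemokines and their signalling genes they were -1.78 (Ccl2), -1.46 (Ccl7), -1.42 (Il11), -1.07 (Inhba), -1.05 (Socs3), -1.10 (Hbegf) and -2.27 (Prok2). Among genes of epithelia and linings they were -2.59 (Reg3g), -2.41 (Krtdap), -1.93 (Tgm1), -1.44 (Dmkn), -1.72 (Msln) and -1.93 (Raet1d). Among genes of macrophages, matrix and stress they were -2.16 (Arg1), -1.31 (Cd44), -1.08 (Vcan), -1.14 (Lox), -1.15 (Prg4), -0.97 (Rdh10), -0.70 (Fosl1) and -1.18 (Hmox1). Slc6a14 had a difference between contrasts of 1.45. The values of Arg1 and Reg3g each include a group not shown to be above background and are given as measured. Groups of 3 arrays were too small for a test of single outlying arrays.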

How the results depend on the processing

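Of 133 genes followed through the alternatives, not all of them described here, 10 changed sign under an alternative, and 0 of these were called. Without 1 compared array the differences ran from -0.74 to 0.17 (Ctsg), -0.046 to 0.15 (Krt10), -0.36 to 0.21 (Ltc4s), -0.022 to 0.047 (Ndst2), -0.14 to 0.042 (Slc18a2), -0.13 to 0.11 (Slc6a4), -0.022 to 0.28 (Tph1) and -0.071 to 0.12 (Tpsg1). Without the 5 arrays lowest in Ttr they were 0.065 (Ctsg), 0.0165 (Fcer1g) and 0.040 (Slc18a2), with tissue scores 0.0011 (Gzmb), -0.063 (Slc6a4) and -0.12 (Tpsg1), with array medians subtracted -0.038 (Ndst2), -0.012 (Slc6a4) and -0.032 (Tpsg1), after a second quantile normalization -0.0016 (Slc6a4) and -0.034 (Tpsg1), and with array weights -0.020 (Slc6a4). Of the 133 genes followed, 99 were called, and 61 of those were called in all 6 fits without 1 compared array. Of the 565 probe sets, 172 (27 higher and 145 lower) were called in all 6. Without 1 compared array the stroke contrast had 226 to 593 calls (34 to 152 higher, 170 to 441 lower), the difference between contrasts 31 to 65, and engrafted minus wild type 29 to 87. With only the 6 compared arrays, which leaves fewer degrees of freedom, there were 222 calls (38 higher, 184 lower). Array weights gave 1743 (755 higher, 988 lower), and 36 in naive dura, 305 for the difference between contrasts and 199 for engrafted minus wild type. Subtracting array medians gave 640 lower calls and 127 for the difference between contrasts. With scores of choroid plexus and neuron genes in the fit there were 333 calls (228 lower), and 14 each for engrafted minus deficient and engrafted minus wild type. Without the 5 arrays lowest in Ttr, which leaves fewer samples, there were 95 (11 higher, 84 lower), and 28 for engrafted minus wild type. That fit kept only deficient naive array 2 in its group, so no count is given for the difference between contrasts. A minimum change of 1.5-fold left 271 (56 higher, 215 lower), and 58 for engrafted minus wild type. The replicate block gave 424 calls for the stroke contrast, 46 for the difference between contrasts and 57 for engrafted minus wild type; not every array correlated best with its own number (deficient array 1 did so with wild-type array 3, r = 0.317). Alternatives for the contrasts other than the stroke contrast were chosen after seeing the data. The causes of these changes were not tested where the number of arrays or genes does not show them. No array files with detection calls were used, so low levels limit what dim genes such as Il6 and Cxcl2 can show.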

Other observations

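Genes of sterol synthesis, in a list drawn up after values were seen, lay on the lower side in deficient stroke dura. All 17 measured members had a negative difference (median -0.25) and 5 passed, but 0 did so without wild-type array 1, wild-type array 3 or deficient array 3, 1 without deficient array 2, and 0 with only the 6 compared arrays. Cyp51, which removes a methyl group from lanosterol, had a difference of -0.65 (adjusted p = 0.0206, and 0.104, 0.08 and 0.0885 without those 3 arrays). Among 15 clock genes 3 rose and 0 fell (median 0.24), but 1 did without wild-type array 2 or deficient array 2, and 0 did with only the 6 compared arrays or without the 5 arrays lowest in Ttr. The calls of Hlf and Per3 were kept in 0 and 1 of the 6 fits without 1 compared array, and that of Tef in all 6. Tef, a clock output factor, had log2 levels of 10.10, 10.28 and 10.15 in deficient stroke dura, against 9.72, 9.64 and 9.80 in wild-type stroke dura (1.38-fold higher, adjusted p = 0.00275), and the time of day at which the dura was taken is not given in the sources used here. Pdpn, podoplanin, a surface protein of lymphatic vessels and fibroblasts, had 11.42, 11.43 and 11.39 in deficient stroke dura, against 11.88, 11.71 and 11.93 in wild-type stroke dura (1.35-fold lower, adjusted p = 0.00228). Of 16 collagens, 2 fell (Col4a1 and Col18a1) and 0 rose (median -0.02). The number that fell was 0 without wild-type array 2, with only the 6 compared arrays or without the 5 arrays lowest in Ttr, and 1 in the other fits without 1 compared array.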
